A study of Caenorhabditis elegans with 12 samples.

Results

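The H3K9me2 peaks of the *jhdm-1* experiment are described here as a map of where the mark gathers along the *C. elegans* chromosomes. The members are all 5883 peaks of the list deposited for that experiment, out of 16340 peaks in both lists of the series, and no measured value was used to choose among them. Chromatin immunoprecipitation followed by sequencing (ChIP-seq) was performed with an H3K9me2 antibody on whole animals of mixed stage, fed OP50 bacteria. The 4 ChIP groups were early-gen and mid-gen populations of N2 wild type and early-gen and mid-gen populations of *jhdm-1 (ok2364)* mutants, with input DNA as an additional sample. The methods describe a pair of replicates for each group. By the labels, in both generations a wild-type library is shared with the *wdr-5* experiment. The list pools these groups and gives nothing but peak positions on WS220/ce10. It therefore shows where H3K9me2 was called in at least 1 group, and it separates neither genotypes nor generations. It holds no coverage, read depth or replicate values, so no difference between groups of animals could be tested. The intervals given below cover counting error only and treat the peaks as independent. In whole animals a peak cannot be assigned to germline or soma.

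H3K9me2 is a dimethyl mark on lysine 9 of histone H3 that is associated with heterochromatin. In *C. elegans* it is placed by the methyltransferase MET-2, and JHDM-1 is a predicted H3K9 demethylase with homology to Epe1 of *S. pombe*. The chromosomes of this nematode are holocentric, which means that they have no single centromere. Each autosome has a gene-dense centre, where many broadly expressed genes lie, and arms that recombine more often and are richer in repeats. The arms carry most of the H3K9 methylation and lie at the nuclear periphery. The X chromosome is present as a pair in hermaphrodites and singly in males, and it is largely silent in the germline.

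As called, the peaks were short and sparse islands rather than continuous blocks. Together they covered 6.65 Mb, or 6.64% of the 100.2 Mb that the 6 chromosomes were taken to span. The mean peak was 1130 bp long and the median was 833 bp (95% rank interval from 818 to 853 bp). Peaks shorter than 500 bp made up 27.5% of the list but 7.96% of the covered length. Peaks of 1000 to 2000 bp held the most base pairs of the length classes, with 32.9% of the covered length in 1575 peaks. Only 67 peaks were 5 kb or longer.

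The spacing of the peaks varied far more than their length. The median of 5877 gaps between neighbouring peaks was 5438 bp (from 5224 to 5668 bp), while the mean gap was 15907 bp. The quartiles of the gaps were 2163 and 14279 bp. The coefficient of variation of the gaps, their SD divided by their mean, was 2.20, where 1 would mean an SD as large as the mean. The 161 gaps of 100 kb or more were 2.74% of all gaps and contained 30.2% of the base pairs that lay between peaks. At the other end, gaps under 1 kb were 7.42% of the gaps.

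Short gaps ended at a sharp step. Only 79 gaps (1.34%) were shorter than 800 bp. The class from 700 to 800 bp held 14 gaps and the class from 800 to 900 bp held 185. From there the number fell slowly, to 172 gaps in the class from 900 to 1000 bp. The step was not looked for in advance. These are gaps between peaks that were called as broad peaks and united over groups. What sets the step was not tested, the settings of the peak calling included.

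The chromosome arms held most of the peaks on all 6 chromosomes. When each chromosome was divided into 3 equal parts, with the outer parts taken as arms, 5287 peaks lay on arms and 596 in centres. The autosome arms had 90.5 peaks per Mb and the autosome centres 19.9 peaks per Mb. The ratio of arm to centre density was 5.09 ± 2.20 (SD, n = 5 autosomes). It was highest on Chromosome II, with 91.4 peaks per Mb on its arms and 10.6 in its centre. It was lowest on Chromosome IV, at 75.5 and 25.4 peaks per Mb. On X, the values were 26.3 and 8.13 peaks per Mb, a ratio of 3.23, which lies inside the range of the autosomes (from 2.97 to 8.62). With each chromosome cut into 10 equal parts, the densest part held 6.13 to 12.2 times as many peaks as the sparsest. On every chromosome the sparsest part lay between the fourth and the seventh from the left end.

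**Figure D1:**
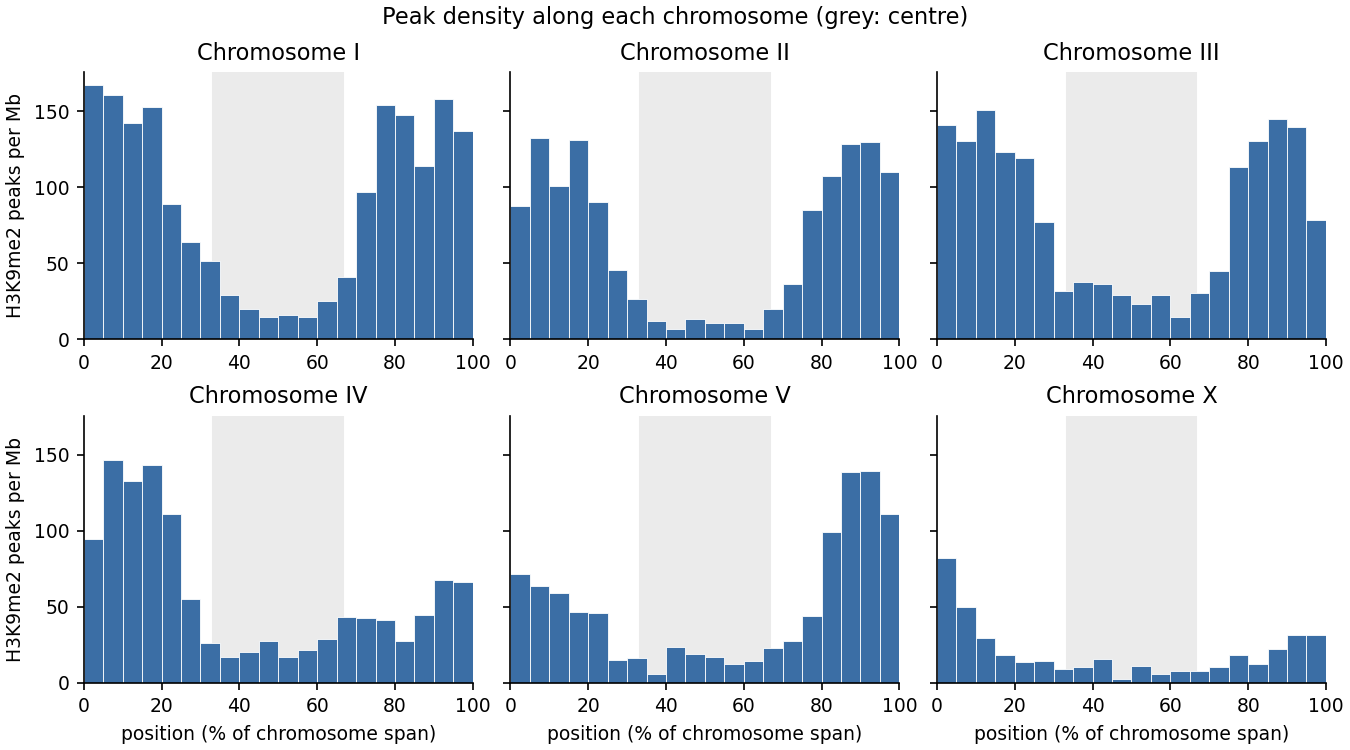
Density of H3K9me2 peaks (peaks per Mb) in 20 equal parts of each chromosome, with position as a percent of the chromosome span and the central part of 3 shaded grey. Both arms stand above the centre on Chromosomes I, II and III, the left arm is the denser on IV and the right arm on V, and X has a maximum at its left end.

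The left and right arms were alike on some chromosomes and unlike on others. Over all chromosomes the left arms held 51.7% of the arm peaks (95% Wilson interval from 50.3% to 53.0%). On Chromosome I the arms had 611 and 630 peaks, on II 464 and 467, and on III 526 and 463. Chromosome IV had 608 peaks on its left arm and 271 on its right arm, a ratio of 2.24. Chromosome V showed the opposite order, with 330 peaks on the left and 607 on the right, a ratio of 1.84. The left arm of X held 192 peaks and its right arm 118. The sparser arms of IV and V, at 46.5 and 47.3 peaks per Mb, had about the same density as each other and remained above every centre, the highest of which was that of Chromosome III at 28.5 peaks per Mb.

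Pooled over the autosomes, the median length of a peak differed little between arms and centres. The median was 828 bp on autosome arms (from 811 to 848 bp) and 893 bp in autosome centres (from 764 to 957 bp), and these intervals overlap. Peaks of 2 kb or more made up 12.6% of the peaks on autosome arms (from 11.7% to 13.5%) and 14.2% of those in autosome centres (from 11.6% to 17.4%). Chromosome II differed. The 54 peaks of its centre had a median of 1338.5 bp (from 938 to 1534 bp), against 827 bp (from 780 to 879 bp) for its 931 arm peaks. It was the only 1 of the 6 chromosomes on which the intervals of arms and centre did not overlap. On Chromosome V the centre median was also the higher, at 1013 bp (from 809 to 1215 bp) against 833 bp (from 778 to 872 bp) on the arms, with intervals that overlap. Without the 12 peaks of 1 domain described below, the centre median of V was 924 bp (from 718 to 1080 bp). On Chromosomes I, III, IV and X the median was lower in the centre than on the arms, by a ratio between 0.903 and 0.961. Arms and centres thus differed in the number of peaks, while their typical lengths did not differ beyond the intervals except on Chromosome II. The intervals of single centres are wide, so their overlap with the arms does not show that the lengths were equal.

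**Figure D2:**
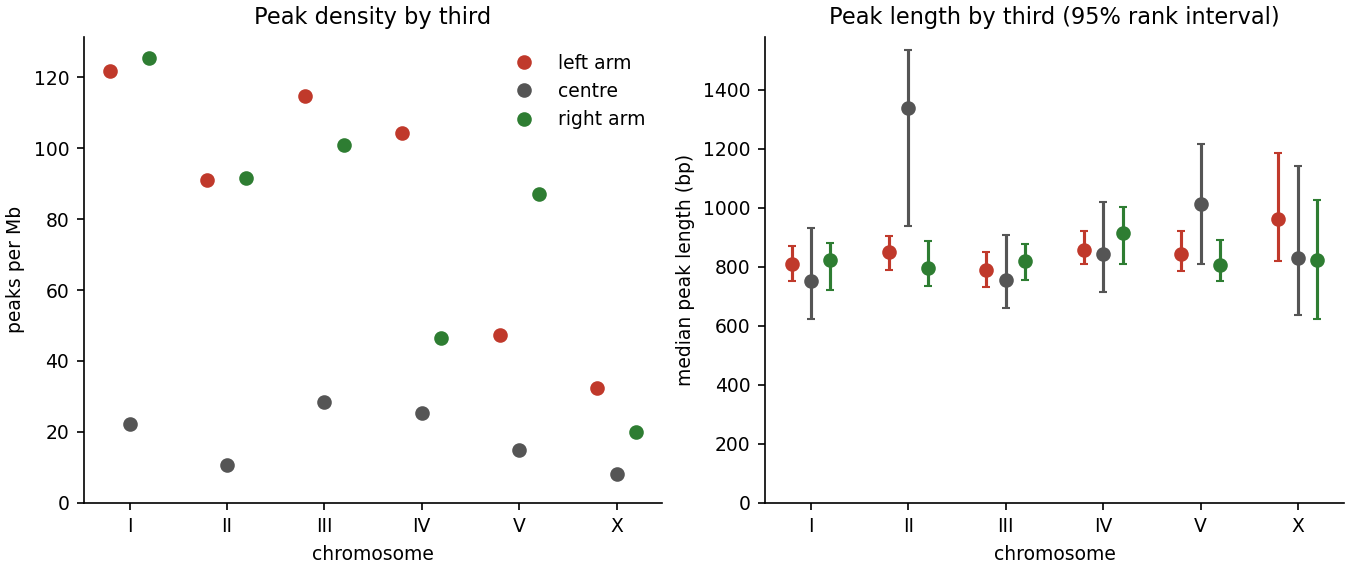
Peak density (left, peaks per Mb) and median peak length (right, bp, with 95% rank intervals) in the left arm, centre and right arm of each chromosome. Density falls from arms to centre on every chromosome, whereas the length intervals overlap apart from the centre of Chromosome II at 1338.5 bp.

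The gaps were wider in the centres, where the density was lower. The median gap was 4764 bp on autosome arms (from 4582 to 4991 bp) and 26771 bp in autosome centres (from 23656 to 29894 bp). The ratio of centre to arm was 6.51 ± 2.57 (SD, n = 5 autosomes), with the extremes 4.20 on Chromosome III and 10.3 on Chromosome II. Within arms and centres taken separately the gaps were less uneven than over whole chromosomes. The coefficient of variation was 1.48 ± 0.172 on autosome arms and 1.21 ± 0.121 in autosome centres (SD, n = 5 chromosomes each), compared with 1.96 ± 0.280 over whole autosomes. It was above 1 in every arm and centre, from 1.05 in the centre of Chromosome I to 1.80 on the right arm of V. Neighbouring gaps resembled each other weakly, with Spearman's rho between 0.180 and 0.364 on the 6 chromosomes. Lengths of neighbouring peaks did not, with rho between -0.00358 and 0.0750. These correlations are over 357 to 1351 gaps a chromosome, in which neighbours share a peak, and are given as a description.

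**Figure D3:**
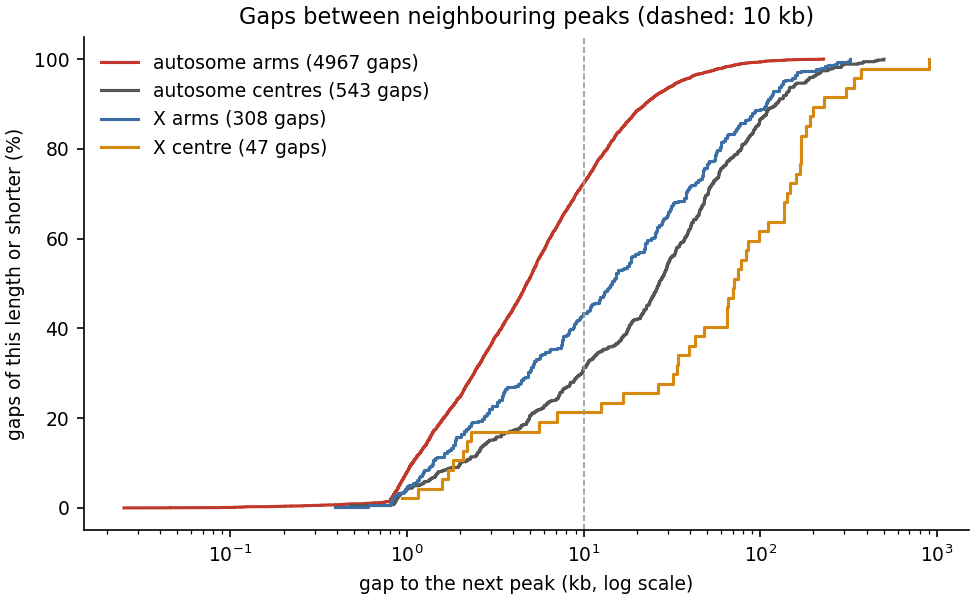
Cumulative share of gaps (%) against gap length (kb, log scale) for autosome arms, autosome centres, X arms and the X centre, with 10 kb dashed. Of the gaps, 72.2% on autosome arms and 30.9% in autosome centres were 10 kb or shorter, and 43.5% and 21.3% on X arms and in the X centre, and the curves rise sharply only above 800 bp.

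To describe how peaks gather, a domain was defined as at least 3 peaks in which each lies within 10 kb of the next. The list held 683 such domains with 4226 peaks, or 71.8% of all peaks. Another 714 peaks formed 357 pairs and 943 peaks (16.0%) stood alone. The median domain had 5 peaks and spanned 19.6 kb (from 18.3 to 21.0 kb), of which 26.3% was covered by peaks (from 25.3% to 27.5%). The span of a typical domain was thus mostly sequence not called as a peak, which is not shown to lack H3K9me2. The domain spans added up to 17.7% of the chromosome spans. There were 98 domains with 10 or more peaks, and these held 1431 peaks. Peaks in such large domains had a median length of 837 bp, the same value as peaks that stood alone.

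Of the 683 domains, 631 lay on autosome arms. These arms had 11.5 domains per Mb, and 79.8% of their peaks lay in a domain (from 78.7% to 80.9%). In autosome centres there were 1.02 domains per Mb, 22.4% of the peaks lay in a domain (from 19.2% to 26.1%), and 50.9% stood alone. Of the 28 domains in autosome centres, 17 had exactly 3 peaks. Membership in a domain depends on the density of peaks under this definition. When the largest gap allowed inside a domain was raised from 1 to 100 kb, the share of single peaks fell from 86.0% to 0.595%, with a lower value at each larger distance tried. Of the distances tried, 10 kb gave the most domains, and their number fell to 416 at 20 kb as neighbours fused. At 50 kb the largest domain joined 576 peaks over 4580 kb.

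**Figure D4:**
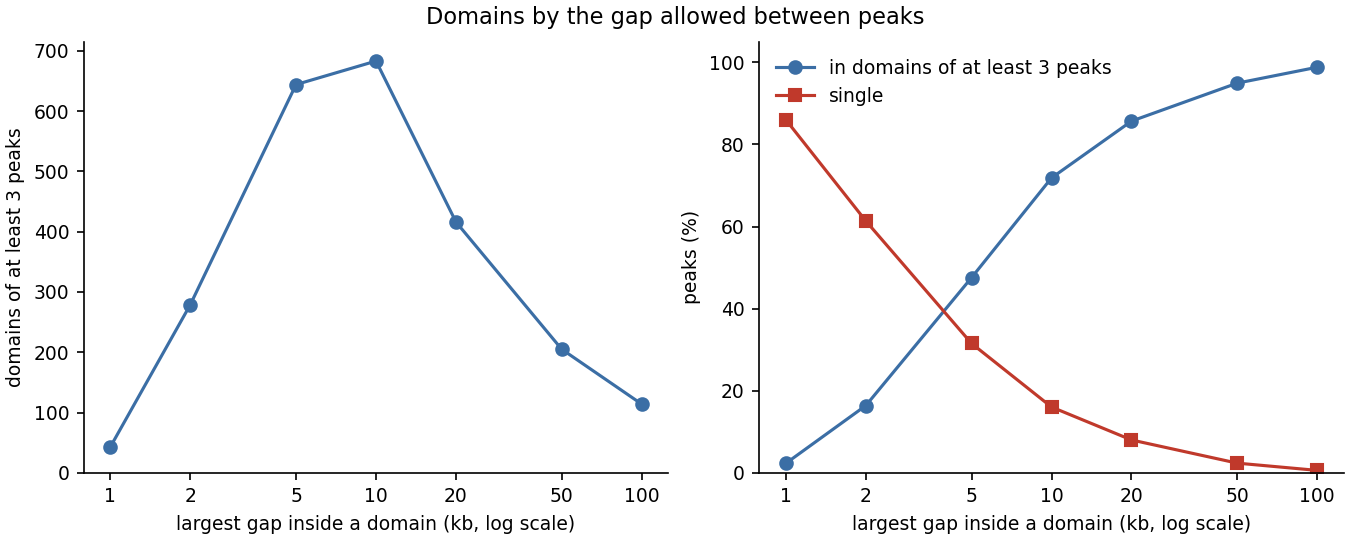
Number of domains of at least 3 peaks (left) and percent of peaks in such domains or standing alone (right) against the largest gap allowed inside a domain (kb, log scale). The number of domains reaches 683 at 10 kb, and the share of peaks standing alone falls from 86.0% at 1 kb to 0.595% at 100 kb.

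The domains with most peaks outside Chromosome I all lay on arms. On Chromosome III, 27 peaks spanned 91.4 kb from 1142182 to 1233588 on the left arm, with 29.5% of the span covered. On Chromosome V, 22 peaks spanned 104.6 kb from 18609290 to 18713909 on the right arm. On Chromosome IV, 20 peaks from 1754998 to 1833511 covered 19.5% of 78.5 kb, and the longest of them was 1610 bp. Chromosome II had 2 domains with 17 peaks, the first of which ran from 984010 to 1047314 and was covered to 39.6%. The longest peaks in the domains on II, III and V were 4818, 3739 and 7414 bp long.

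Stretches without peaks were the counterpart of the domains. On the autosomes, 107 gaps reached 100 kb, and 76 of them lay in a centre. The longest ran from 7878315 to 8380778 on Chromosome V (502.5 kb) and from 8036258 to 8498802 on Chromosome II (462.5 kb). On Chromosomes III and IV the longest stretches were 287.1 kb, from 6153398 to 6440533, and 287.6 kb, from 6824086 to 7111675. All 4 lay in the central part of their chromosome. In bins of 100 kb, 132 of 1005 bins (13.1%) had no peak, and 176 bins (17.5%) held 50% of the covered length. Empty bins were fewest on Chromosome III, with 4 of 138.

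The X chromosome had few peaks of ordinary length. Its density was 20.2 peaks per Mb, below each autosome (68.8 ± 16.4 peaks per Mb, SD, n = 5, from 49.8 on V to 89.8 on I). Peaks covered 2.60% of X, against 7.68% ± 1.65 (SD, n = 5) of an autosome. The median peak on X was 900 bp long (from 790 to 1013 bp), and the autosome medians of 810.5 to 877 bp lie within this interval. The median gap on X was 17983 bp (from 13163 to 25121 bp), compared with 5375 ± 671 bp on the autosomes (SD, n = 5). Gaps of 100 kb or more took up 58.6% of X and 21.7% of the autosomes. Of the 54 such gaps on X, 34 lay on arms, which are 2 of 3 equal parts, and 20 (37.0%) in the centre. This compares numbers of long gaps and not their lengths. The median of all gaps was 71238 bp in the X centre (from 39368 to 135690 bp) and 14351.5 bp on the X arms (from 10827 to 18619 bp). The longest stretch without a peak in the whole list was 897.5 kb in the centre of X, from 7824604 to 8722057. Of the 100 kb bins on X, 28.1% were empty (from 22.0% to 35.1%).

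The peaks of X were densest at its left end. The first of 10 equal parts of X held 117 peaks, or 32.7% of the chromosome's peaks, and the second part held 42. On the autosomes the first part held 13.6% to 20.5% of the peaks, and its count was 0.876 to 1.28 times that of the second. The first 300 kb of X held 55 peaks, which was 9.07 times the mean of the chromosome and covered 27.0% of the window. The same window held 53 peaks on I, 24 on II, 49 on III, 25 on IV and 20 on V. These counts were 1.24 to 2.01 times the means of the 5 autosomes. By count the left end of X was thus close to those of I and III, and it stood out against the low mean of X. The size of this window was set with the data in view. The domain with most peaks on X started with its first peak, at 3824, and joined 25 peaks over 89.9 kb to 93722, with 32.9% of the span covered. The 100 kb bin with most covered base pairs on X followed close by, from 200001 to 300000, with 16 peaks and 31.9 kb. The right end was also denser than X as a whole. The last of the 10 parts held 56 peaks, or 31.6 peaks per Mb against 20.2 over X, and the last 300 kb held 11 peaks. The right arm of X had 20.0 peaks per Mb, close to the 19.9 of the autosome centres. In the centre of X, 31 of 48 peaks stood alone.

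The longest peaks lay both on arms and in centres. The longest of all spanned 27138 bp on the left arm of Chromosome II, from 1959415 to 1986552. It made up most of the 30.9 kb in the most covered bin of Chromosome II, from 1900001 to 2000000. The second was 14822 bp long and lay on the right arm of Chromosome I. The third was 12816 bp long, from 7350603 to 7363418, and lay in the centre of X, with gaps of 1824 and 932 bp to its neighbours. Of the 9 peaks of 10 kb or more, 4 lay in a centre (44.4%, from 18.9% to 73.3%), where 10.1% of all peaks lay. Among these 4 are the peaks of 12395 and 12400 bp that lie in the same domain of Chromosome V, described below. The interval treats them as independent. Among the 67 peaks of 5 kb or more the share in centres was 10.4% (from 5.15% to 20.0%), close to that of the whole list. The longest peak of Chromosome III, 11267 bp from 388434 to 399700, and that of IV, 9866 bp from 688400 to 698265, both lay on left arms.

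Of all 100 kb bins, the one with most covered base pairs lay in a chromosome centre. The bin from 8800001 to 8900000 on Chromosome V held 61.1 kb of peaks, whereas the next most covered bin of that chromosome held 27.9 kb and the median of its other bins was 3.50 kb. Its 12 peaks formed a single domain of 89.1 kb from 8809515 to 8898639 that was covered to 68.6%. Some smaller domains were covered more fully, up to 87.0% in 3 peaks over 21.2 kb in the centre of X. The domain on Chromosome V had gaps of 188710 bp on its left and 51369 bp on its right. The mean gap in autosome centres was 48788 bp. The most covered bins of Chromosomes II, III, IV and X lay on left arms and held between 23.2 kb on III and 31.9 kb on X.

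Within this domain a series of 5 peaks appeared 2 times with nearly the same spacing. The first series began at 8824800 and the second at 8866838, and the starts of the 5 corresponding peaks were 42038 to 42103 bp apart. The first 4 peaks of the first series were 3469, 3368, 12395 and 3518 bp long. Those of the second series were 3483, 3410, 12400 and 3535 bp long, so that the lengths differed by 5 to 42 bp. The gaps between the peaks were 471, 870, 1991 and 927 bp in the first series and 482, 859, 1987 and 918 bp in the second. Only the fifth peaks differed in length, at 7808 and 4728 bp. Among all 5865 runs of 4 neighbouring peaks in the list, this was the only pair whose lengths and gaps all matched within 50 bp, in the same or the reverse order. With a tolerance of 200 bp there were 2 more pairs, both on Chromosome I. The search was made after the series had been seen. No genome sequence of this build was used, so whether both stretches share a sequence was not tested. Without the 12 peaks of this domain, the peaks of the centre of Chromosome V covered 106.5 kb in place of 167.7 kb, and the autosome centres held 1 peak of 10 kb or more in place of 3.

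**Figure D5:**
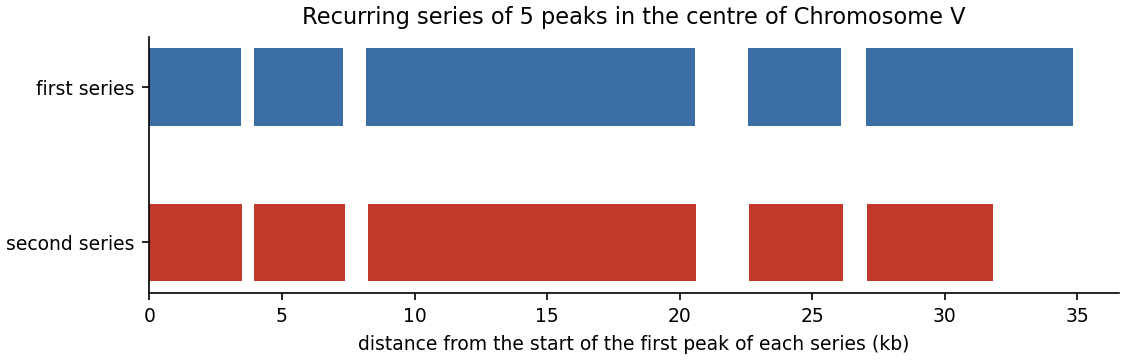
The 5 peaks of each series in the centre of Chromosome V, drawn to scale from the start of the first peak of each series (kb). The first 4 peaks line up in start and length, with lengths that differ by at most 42 bp, and the fifth is 7808 bp long in the first series and 4728 bp in the second.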

How the data were processed

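Per the paper's methods and the submitters' processing notes, the authors aligned filtered reads to WS220/ce10 with Bowtie2 and called broad peaks per replicate with MACS2 2.1.1. Peaks found in both replicates of a genotype and generation were kept, and the union over groups was deposited as positions, without score or coverage. Depth is therefore unknown. Starts were deposited counted from 0 and are printed counted from 1. Lengths, gaps, domains and bins were computed with Python 3.11.15, numpy 2.4.6 and scipy 1.17.1, and figures were drawn with matplotlib 3.10.9. The functions were tested on simulated lists. A chromosome was taken to end at the last peak end in either list, the only use made of the *wdr-5* list. Peaks were assigned to arms and centres by midpoint, and gaps only where both flanking peaks lay in the same part. In the counts of gaps of 100 kb or more, each gap was assigned by its own midpoint. Shares have 95% Wilson intervals and medians exact rank intervals. Regions named are the 3 longest peaks and, for each chromosome except I, the longest peak, the domain with most peaks, the longest gap and the most covered 100 kb bin. Positions on Chromosome I are not printed, but its peaks enter every count. Further peaks are named where stated. The members and rules were chosen with earlier results of these data known. The gene table used here is on another build, so peaks were left without gene names and no sequence was read.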

Additional observations from a re-analysis of the deposited data

How the results depend on the processing

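Of 64 recomputed values for 18 results, 35 stayed within the interval of the result, or within 1.5 times it for a count, ratio or covered share. The other 29 moved further, and 0 reversed. Counts, lengths and spans have no direction that could reverse. Ratios of arm to centre and of X to autosome density, and both ratios of median length, stayed within that limit under all alternatives tried for them. For median length the limits lay on both sides of 1, so staying within them does not settle a direction. They ran from 0.625 to 1.41 for arm to centre and from 0.724 to 1.63 for X to autosome. The recomputed ratios were 0.931 to 0.992 for arm to centre and 1.05 to 1.15 for X to autosome. The values that moved mostly follow from the definitions. With peaks of at least 500 bp, the median length was 1064 bp, the median gap 7904.5 bp, the share of peaks in domains 59.9%, the median domain span 18.2 kb and the share of empty bins 17.2%. With peaks within 1 kb merged, the median length was 882.5 bp and the median gap 6178 bp. With chromosomes in 4 parts, 79.7% of peaks lay on arms. By base pairs, X held 6.93% of the list. For largest gaps of 2, 5, 20 and 50 kb, the share of peaks in domains was 16.4%, 47.5%, 85.7% and 94.9%, and the median span 6.37, 10.5, 38.1 and 82.8 kb. At 2, 20 and 50 kb the number of domains was 279, 416 and 205. With domains of at least 2 peaks there were 1040, with 84.0% of peaks and a median span of 12.5 kb, and with at least 5 peaks there were 366, with 53.7% and 30.9 kb. Bins of 50 and 200 kb were empty in 25.2% and 3.97%. Leaving out the 12 peaks of the Chromosome V domain was chosen after seeing the data, and it lowered the covered share of that centre to 1.53%. No paired analysis was possible because the list pools its replicates, and none could be left out. The depth of the libraries limits which stretches could be called, so a stretch without a peak is not shown to lack H3K9me2.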
